A study of Homo sapiens with 24 samples.

Results

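The genes described here are 7 transcription factors that set intestinal and endodermal identity, CDX1, CDX2, HNF4A, HNF4G, GATA6, FOXA1 and FOXA2. They were taken by name, through their Ensembl identifiers, from the 33382 genes listed in RNA-seq gene tables of 24 libraries. The naming rule uses no measured value, although the set was proposed with earlier results of these data known. 6 of the 7 passed the filter on low counts and were tested, and CDX1 had too few counts. The libraries came from SW480 and SW620, established colorectal adenocarcinoma cell lines that were derived from the primary tumour and from a lymph node metastasis of the same patient. Each line was infected with a lentivirus carrying Tet2CD, the catalytic domain of the DNA demethylase TET2, or with an empty virus (vector), and infected cells were kept by puromycin at 5 µg/ml. DMSO, TGFB1 at 4 ng/ml or RepSox at 1 µM, which blocks the type I TGF-beta receptor ALK5, was then given for 24 h. All 12 groups of line, construct and treatment were cultured, infected and selected in the same way, and each held 2 libraries. The promoter that drives Tet2CD, and whether a line was a pool or a clone, were not given in the sources used here, and no label says that the libraries of a group were separate cultures, so the spread behind each p-value may be technical.

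CDX1 and CDX2 are caudal-type homeobox factors that are turned on along the gut posterior to the stomach and maintain intestinal epithelium. HNF4A and HNF4G are nuclear receptors that bind many enterocyte promoters and enhancers together with the CDX factors. GATA6 is a zinc finger factor, and FOXA1 and FOXA2 are forkhead pioneer factors that open chromatin in endoderm. In the colon CDX2 and HNF4A are widely used as markers of epithelial differentiation, and TGF-beta signalling is best known in carcinoma cells for driving the epithelial-mesenchymal transition.

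The promoters of the 2 members that were higher with Tet2CD in SW480 are shown. TET2 acts on methylated cytosine, which in most mammalian DNA lies before guanine (CG). Each is 300 bases, from 250 before to 50 after a RefSeq start on GRCh38.p14. Capitals mark matches, on either strand, to 2 motifs, the letters TGTTTAC for the FOXA factors or the letters AGATAA for the factors of the GATA family. HNF4A has an upstream and a downstream start, and both are shown. The CDX2 window is chr13:27969266-27969565 on the minus strand, and the HNF4A windows are chr20:44355449-44355748 and chr20:44400989-44401288 on the plus strand.
CDX2: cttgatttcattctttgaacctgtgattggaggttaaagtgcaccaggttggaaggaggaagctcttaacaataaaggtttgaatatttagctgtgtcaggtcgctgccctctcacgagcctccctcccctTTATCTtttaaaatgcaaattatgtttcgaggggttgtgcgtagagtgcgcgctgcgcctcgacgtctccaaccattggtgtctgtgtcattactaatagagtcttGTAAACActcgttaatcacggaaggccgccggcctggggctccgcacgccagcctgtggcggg
HNF4A upstream: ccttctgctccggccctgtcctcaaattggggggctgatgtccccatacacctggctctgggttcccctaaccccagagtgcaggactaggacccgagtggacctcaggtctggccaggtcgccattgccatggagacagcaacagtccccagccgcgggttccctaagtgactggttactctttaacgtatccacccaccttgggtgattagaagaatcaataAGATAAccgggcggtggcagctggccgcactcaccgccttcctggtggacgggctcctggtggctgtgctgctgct
HNF4A downstream: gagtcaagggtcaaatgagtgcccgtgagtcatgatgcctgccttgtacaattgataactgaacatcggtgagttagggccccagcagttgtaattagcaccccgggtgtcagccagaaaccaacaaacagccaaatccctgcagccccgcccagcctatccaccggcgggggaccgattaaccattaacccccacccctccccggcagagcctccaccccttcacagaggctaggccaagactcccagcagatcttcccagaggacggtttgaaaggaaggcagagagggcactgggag
The CDX2 window held 16 CG dinucleotides, a FOXA match on the minus strand of the printed sequence at bases 238 to 244 and a GATA match on that strand at bases 132 to 137. The upstream HNF4A window held 11 CG and a GATA match at bases 225 to 230, and the downstream window held 9 CG and no match. Over all 35116 RefSeq promoters of the same length the median was 14 CG, with quartiles of 4 and 28, so the windows of both genes were near the middle and well below the upper quartile. The FOXA letters stood in 3.42% of all promoters and the GATA letters in 10.33%. The letters CAAAGTCCA (HNF4), TTTATGG (CDX) and ATCAAAG (TCF/LEF), held by 0.38%, 2.54% and 2.62% of all promoters, were not in the 3 windows printed. 4 of the 7 members had a promoter in the table, and the FOXA1 and GATA6 windows held 34 and 25 CG and none of these letters. A match is a description of the letters and not a binding site, and DNA methylation was not measured in these libraries.

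The members lie on separate loci of GRCh38 (GENCODE release 29). CDX1 (ENSG00000113722) is at chr5:150166795-150184558 on the plus strand, CDX2 (ENSG00000165556) at chr13:27962137-27971139 on the minus strand, HNF4A (ENSG00000101076) at chr20:44355700-44434596 on the plus strand and HNF4G (ENSG00000164749) at chr8:75407914-75566843 on the plus strand. GATA6 (ENSG00000141448) is at chr18:22169443-22202528 on the plus strand, FOXA1 (ENSG00000129514) at chr14:37589984-37596059 on the minus strand and FOXA2 (ENSG00000125798) at chr20:22581005-22585455 on the minus strand.

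Depth ranged from 2146123 to 4410567 expected counts per library (median 3653712), where an expected count is the estimate made by RSEM of the fragments from a gene. Levels are given as CPM, counts scaled to the same library total, by TMM, except where TPM, which also divides by transcript length, is named. TET2 counts, which hold the transgene, were 10.3 to 25.0 CPM in the 12 vector libraries and 270 to 2640 CPM in the 12 Tet2CD libraries. EPCAM, an epithelial adhesion molecule, was at 304 to 617 CPM in all 24 libraries. The summed level of 5 blood markers was 0 to 2.75 TPM, with HBB at 0 throughout, that of 4 endothelial markers 0.56 to 11.6 TPM, with KDR at 0, and that of 6 fibroblast markers 3.54 to 32.0 TPM. The 8 stomach markers summed to 2.41 to 13.8 TPM in SW480 and 33.8 to 57.9 TPM in SW620, with GKN1 at 0, and the 6 hepatocyte markers, of which TTR and FGB were at 0, to 256 to 475 and 28.6 to 283 TPM, and their part in the differences between lines was not tested. The 3 SW480 Tet2CD libraries numbered replicate 1 stood apart, with 10.1 to 15% of counts on ribosomal protein genes against 5.7 to 9.4% in the other 21 libraries, and values without them are given beside several of the results that use them. In bulk RNA, fewer cells that express a gene and less RNA per cell cannot be told apart.

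The 2 lines held different sets of these factors. SW480 carried CDX2 and FOXA1 above SW620, and SW620 carried HNF4A, HNF4G, GATA6 and FOXA2 above SW480, whether the cells had vector or Tet2CD. FOXA1 was at 0 in all 12 SW620 libraries, and HNF4G was at 0 in 11 of 12 SW480 libraries with 1 count in the other. Tet2CD went with higher CDX2 and HNF4A in SW480, and no member passed the test for Tet2CD in SW620.

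**Figure D1:**
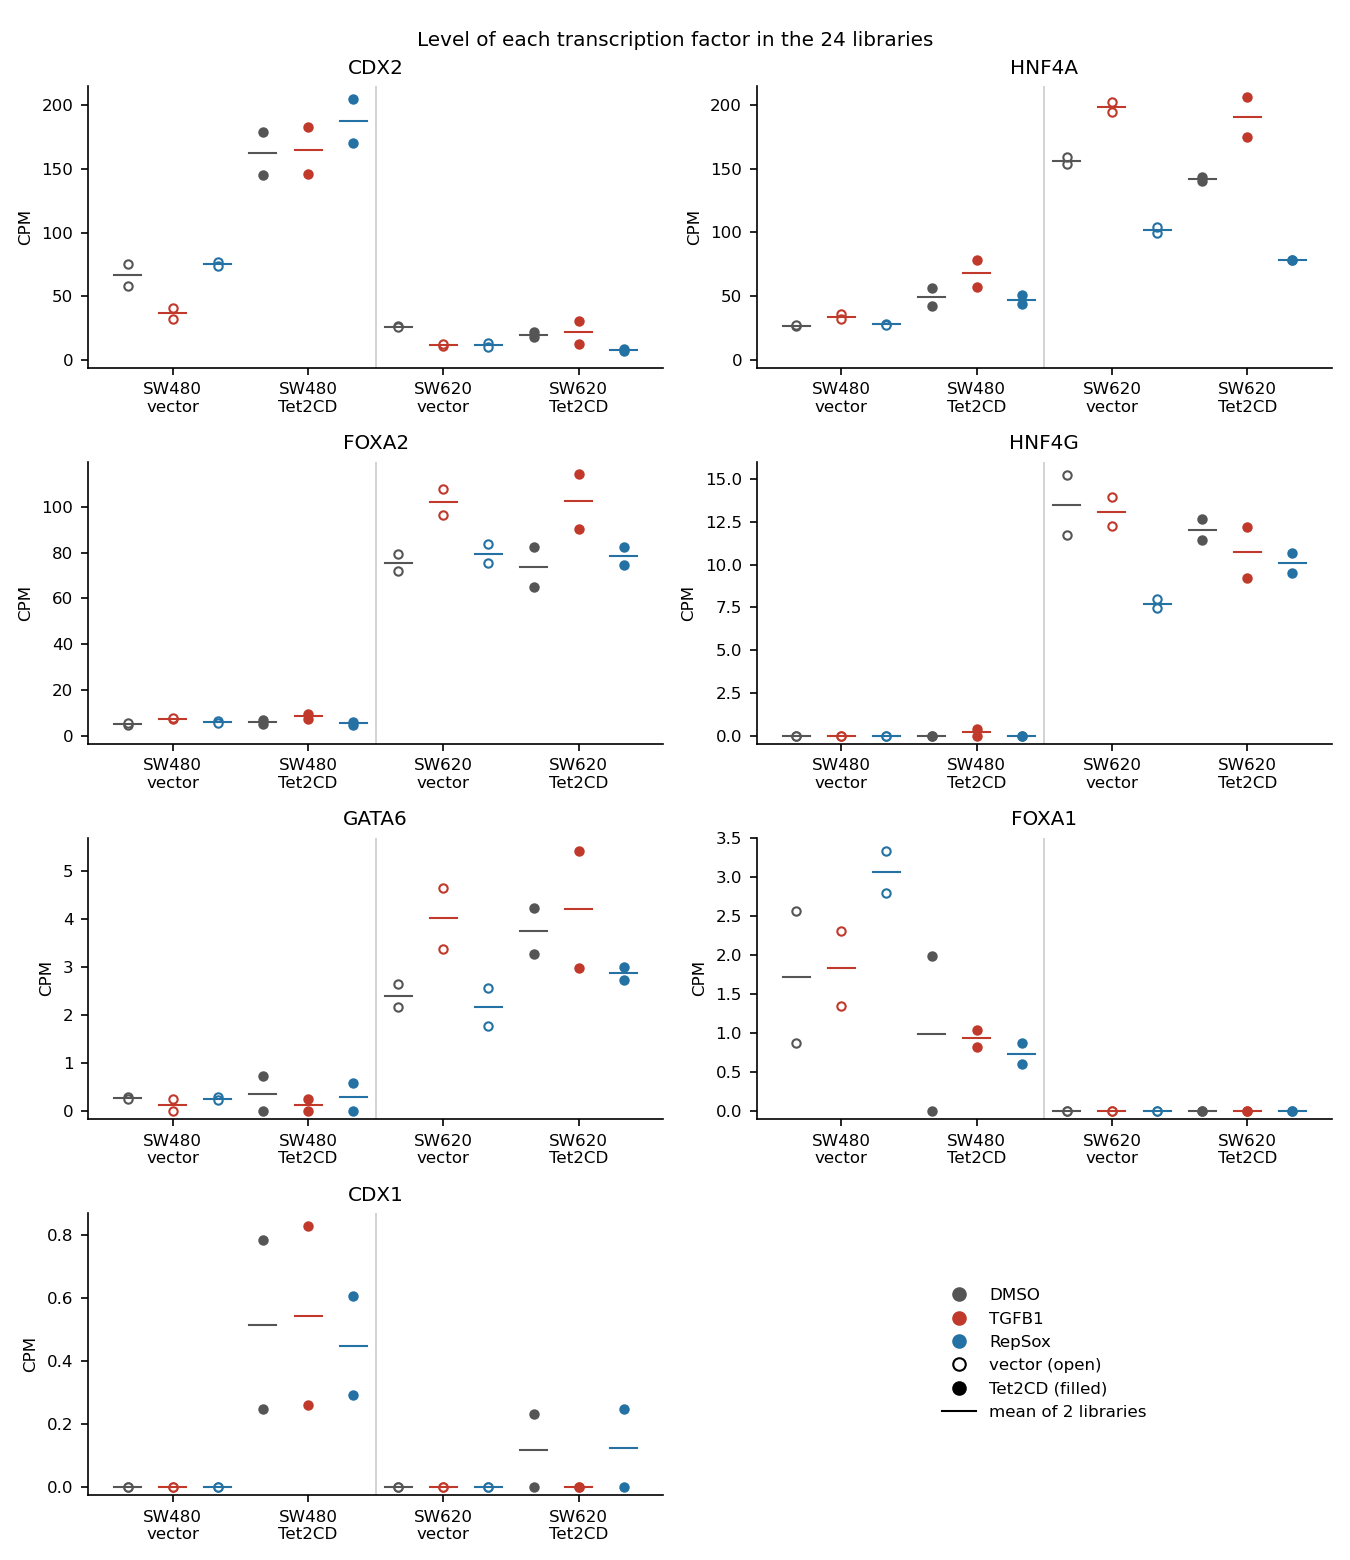
Level of each of the 7 factors in CPM (vertical axis, own scale per panel) in all 24 libraries, by line and construct on the horizontal axis, with open points for vector, filled points for Tet2CD, colours for DMSO, TGFB1 and RepSox, and a bar at the mean of each group of 2. CDX2 is highest in SW480 with Tet2CD (145 to 205 CPM), whereas HNF4A, HNF4G, GATA6 and FOXA2 are highest in SW620.

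CDX2, the homeobox factor that specifies hindgut epithelium, had 5027 counts in all. In SW480 with vector it was at 75.2 and 58.1 CPM with DMSO, 32.5 and 41.2 CPM with TGFB1, and 77.1 and 73.8 CPM with RepSox. In SW480 with Tet2CD it was at 179 and 145 CPM with DMSO, 183 and 146 CPM with TGFB1, and 205 and 170 CPM with RepSox. The lowest Tet2CD library was therefore well above the highest vector library of SW480. In SW620 with vector CDX2 was at 26.3 and 25.5 CPM with DMSO, 10.8 and 12.6 CPM with TGFB1, and 13.1 and 9.93 CPM with RepSox. In SW620 with Tet2CD it was at 21.6 and 17.7 CPM with DMSO, 30.4 and 12.9 CPM with TGFB1, and 8.95 and 7.27 CPM with RepSox. Every SW620 library was below every SW480 library. In the order of the 12 group means, SW480 Tet2CD with RepSox (187.8 ± 24.9 CPM, SD, n = 2), TGFB1 (164.6 ± 26.2) and DMSO (162.3 ± 24.0) came first with overlapping libraries, and SW620 Tet2CD with RepSox (8.11 ± 1.19) came last. 6 of the 11 neighbouring pairs in that order overlapped.

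HNF4A, the nuclear receptor of enterocytes and hepatocytes, had 8178 counts. In SW480 with vector it was at 26.4 and 27.4 CPM with DMSO, 35.9 and 32.0 CPM with TGFB1, and 28.2 and 27.7 CPM with RepSox. In SW480 with Tet2CD it was at 42.4 and 56.1 CPM with DMSO, 57.2 and 78.4 CPM with TGFB1, and 43.6 and 50.8 CPM with RepSox. On this scale no Tet2CD library overlapped the vector libraries. In SW620 with vector HNF4A was at 154 and 159 CPM with DMSO, 202 and 195 CPM with TGFB1, and 99.5 and 104 CPM with RepSox. In SW620 with Tet2CD it was at 144 and 140 CPM with DMSO, 206 and 175 CPM with TGFB1, and 78.0 and 78.2 CPM with RepSox. In SW620 the libraries were ordered by treatment, TGFB1 above DMSO above RepSox with no overlap. The group means ran from 198.5 ± 5.25 CPM (SW620 vector with TGFB1) to 26.9 ± 0.69 CPM (SW480 vector with DMSO), and 8 of the 11 neighbouring pairs did not overlap.

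FOXA2, the forkhead factor of foregut and liver endoderm, ranged from 4.70 to 9.67 CPM in the 12 SW480 libraries and from 64.8 to 114 CPM in the 12 SW620 libraries. In SW480 the 4 TGFB1 libraries (7.17 and 7.59 CPM with vector, 7.46 and 9.67 CPM with Tet2CD) lay above the 4 DMSO libraries (4.70, 5.38, 6.67 and 5.22 CPM). In SW620 the 4 TGFB1 libraries (108 and 96.3 CPM with vector, 114 and 90.5 CPM with Tet2CD) also lay above the 4 DMSO libraries (71.8, 79.5, 82.4 and 64.8 CPM). The TGFB1 groups were thus the highest of each line.

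The other members were low. HNF4G, the paralogue of HNF4A, also found in intestinal epithelium, was at 7.45 to 15.3 CPM in SW620 with vector (median 12, n = 6) and 9.24 to 12.7 CPM with Tet2CD (median 11.1, n = 6). GATA6, which maintains proliferating crypt cells, was at 1.77 to 5.42 CPM in SW620 and 0 to 0.745 CPM in SW480, where no library held more than 3 counts. FOXA1 was at 0.881 to 3.34 CPM in SW480 with vector and 0 to 1.99 CPM with Tet2CD, overlapping ranges that rest on 50 and 18 counts. CDX1, the paralogue of CDX2, had 10 counts in the whole series. It had 1 or 2 counts in each of the 6 SW480 Tet2CD libraries and none in the 6 SW480 vector libraries, so the 8 counts against 0 put it at least 3.4-fold higher, with 3 counts over the group as the floor. In SW620 CDX1 had 1 count in 2 of the 6 Tet2CD libraries and none with vector. A count of 0 allows up to 3 counts, which is 0.675 to 1.82 CPM in a library, and these floors cover counting error alone. Where a fold is given as at least a value, here and below, the counts of the higher group were taken as exact. Their own counting error is left out, so the fold may be lower.

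Only TPM allows levels of different genes to be compared. By median TPM over 6 libraries, CDX2 (58.8) led HNF4A (12.5), FOXA2 (4.10), FOXA1 (1.59) and GATA6 (0.225) in SW480 with vector. In SW620 with vector HNF4A (65.0) led FOXA2 (53.3), HNF4G (8.91), CDX2 (7.18) and GATA6 (1.28). The ratio of CDX2 to HNF4A TPM was 1.61 to 9.02 in the 12 SW480 libraries (median 5.49) and 0.061 to 0.38 in the 12 SW620 libraries (median 0.25), so the lines lay on opposite sides of 1 in every library. TPM depends on the length that RSEM assigned in each library, which ranged from 969 to 4053 bases for CDX2 and from 3407 to 5288 bases for HNF4A.

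The line comparison sets the line from the primary tumour against the line from the metastasis of the same patient. Site of origin cannot be told apart from any other difference between the 2 lines. The p-values rest on the spread among libraries of these lines and do not extend to other tumours. 2 members were higher and 4 lower in SW480, where 28.9% of the 15302 tested genes were higher in SW480 and 30% were lower in vector cells, and 36.4% and 35.2% in Tet2CD cells. HNF4G, GATA6 and FOXA1 passed the filter on low counts only through the line where they are high, so they had to differ. Their p-values, given below for vector and Tet2CD cells, are therefore no support for a difference. Nothing is read from the members' count against these shares. CDX2, HNF4A and FOXA2 had counts in every library of both lines. Tests are the quasi-likelihood test of edgeR with Benjamini-Hochberg adjustment over all tested genes, called under 0.05. In vector cells CDX2 was higher in SW480 by 1.90 on the log2 scale (SE 0.17, adjusted p = 6.52e-08). HNF4A was 4.98-fold lower in SW480 (log2 difference -2.32, SE 0.11, adjusted p = 9.37e-12) and FOXA2 was 14.1-fold lower (log2 difference -3.81, SE 0.13, adjusted p = 2.47e-13). HNF4G, with 254 counts in SW620 and 0 in SW480, was at least 87.1-fold higher in SW620 (adjusted p = 1.15e-08). FOXA1, with 50 counts in SW480 and 0 in SW620, was at least 16.2-fold higher in SW480 (adjusted p = 0.000294). GATA6 was 13.4-fold higher in SW620 (65 against 5 counts, exact 95% counting interval 5.44 to 42.5, adjusted p = 1.24e-05). The 2 HNF4 receptors thus lay on the same side, and the 2 tested forkhead factors lay on opposite sides.

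In Tet2CD cells the same members were called in the same directions. CDX2 was 11.2-fold higher in SW480 (log2 difference 3.49, SE 0.18, adjusted p = 4.09e-11), and HNF4A was lower by a log2 difference of -1.24 (SE 0.10, adjusted p = 1.46e-08). FOXA2 was 12.8-fold lower in SW480 (adjusted p = 5.45e-13) and GATA6 10.5-fold lower (81 against 6 counts, interval 4.63 to 29.5, adjusted p = 8.97e-06). HNF4G had 251 counts in SW620 against 1 in SW480, a ratio of 196 (interval 34.8 to 7760, adjusted p = 2.54e-08), and FOXA1 had 18 counts in SW480 against 0, at least 7.7-fold (adjusted p = 0.00244, and not called without replicate 2 of SW480 Tet2CD with DMSO). Without the 3 libraries that stood apart the log2 differences were 3.37 for CDX2, -1.04 for HNF4A, -3.62 for FOXA2 and -2.74 for GATA6 (adjusted p = 8.16e-05). The value for GATA6, -3.40 with all libraries, was -4.64 without replicate 2 of SW480 Tet2CD with DMSO. It also moved further from 0 without replicate 2 of SW480 Tet2CD with TGFB1 or with RepSox.

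The comparison of Tet2CD with vector asks which of the factors move when the demethylating domain is present. In SW480, 2 of the 6 tested members, CDX2 and HNF4A, were higher and 0 were lower, where 29.2% of all tested genes were higher and 25.3% lower. The count of members higher was thus near the share over all genes, and nothing is read from it about the members as a set. HNF4G, with 1 count in SW480, passed the filter through SW620 and had nothing to test here. CDX2 rose 3.0-fold over the 3 treatments (log2 fold change 1.58, SE 0.16, adjusted p = 1.97e-06), from a mean of 59.7 ± 19.1 CPM with vector to 171.5 ± 23.1 CPM with Tet2CD (SD, n = 6). HNF4A rose 1.84-fold (log2 fold change 0.88, SE 0.10, adjusted p = 9.21e-06), from 29.6 ± 3.61 to 54.7 ± 13.1 CPM (SD, n = 6). Without the 3 libraries that stood apart the log2 fold changes were 1.42 (CDX2, adjusted p = 1.61e-07) and 1.03 (HNF4A, adjusted p = 4.12e-08). FOXA2 differed by 0.12 (95% interval -0.20 to 0.44), GATA6 by 0.45 (-1.21 to 2.10) and FOXA1 by -1.15 (-2.36 to 0.06, adjusted p = 0.102). GATA6 and FOXA1 rest on few counts, and their intervals are wide. FOXA1 was called lower (log2 fold change -2.86, adjusted p = 0.0107) without replicate 2 of SW480 Tet2CD with DMSO.

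Markers of other cells moved in part with Tet2CD in SW480, where 5 of 5 tested epithelial, 2 of 2 endothelial, 1 of 4 fibroblast, 1 of 1 hepatocyte and 0 of 4 stomach markers rose and none fell. Over all tested genes 29.2% were higher and 25.3% lower. The 4 endothelial markers summed to 0.56 to 2.30 TPM with vector and 1.82 to 7.87 TPM with Tet2CD, and the 5 epithelial markers to 8130 to 12800 and 10200 to 14700 TPM. Without the 3 libraries that stood apart 2 of 5 epithelial, 1 of 3 endothelial, 1 of 4 fibroblast and 0 of 1 hepatocyte markers rose. Their part in the result was not tested.

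Within each treatment, a split chosen after the values were seen, CDX2 rose with Tet2CD by 1.28 with DMSO (SE 0.27, adjusted p = 0.0103), 2.16 with TGFB1 (SE 0.28, adjusted p = 0.000106) and 1.31 with RepSox (SE 0.27, adjusted p = 0.00685), all log2. HNF4A rose by 0.88 (adjusted p = 0.00858), 1.00 (adjusted p = 0.00126) and 0.76 (adjusted p = 0.0139). The rise of both genes was thus called within each of the 3 treatments. These tests share an estimate of the spread over all libraries. In all 3 treatments the Tet2CD libraries numbered replicate 1 were above replicate 2 for CDX2 and below it for HNF4A. The treatments are therefore not independent repeats of the result.

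The HNF4A result depended on the scale. In TPM the 3 Tet2CD libraries numbered replicate 1 were at 10.6, 12.1 and 7.48 with DMSO, TGFB1 and RepSox. Each was below both vector libraries of its treatment, and the vector libraries ranged from 10.7 to 18.3. The 3 numbered replicate 2 were at 24.5, 33.2 and 18.8. With limma on log2(TPM + 1) the HNF4A difference was 0.24 (adjusted p = 0.432) and was no longer called. CDX2 stayed called on that scale, with a difference of 0.96 (adjusted p = 0.0124), although the Tet2CD library of RepSox replicate 1 (47.2 TPM) was below 4 of the 6 vector libraries. For HNF4A, the 3 Tet2CD libraries numbered replicate 1 were above vector by counts and not by TPM. RSEM assigned HNF4A lengths of 4915 to 5288 bases in them. The lengths were 3561 to 4253 bases in the SW480 vector libraries and 3922 to 4508 bases in the Tet2CD libraries numbered replicate 2. The cause was not tested.

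**Figure D2:**
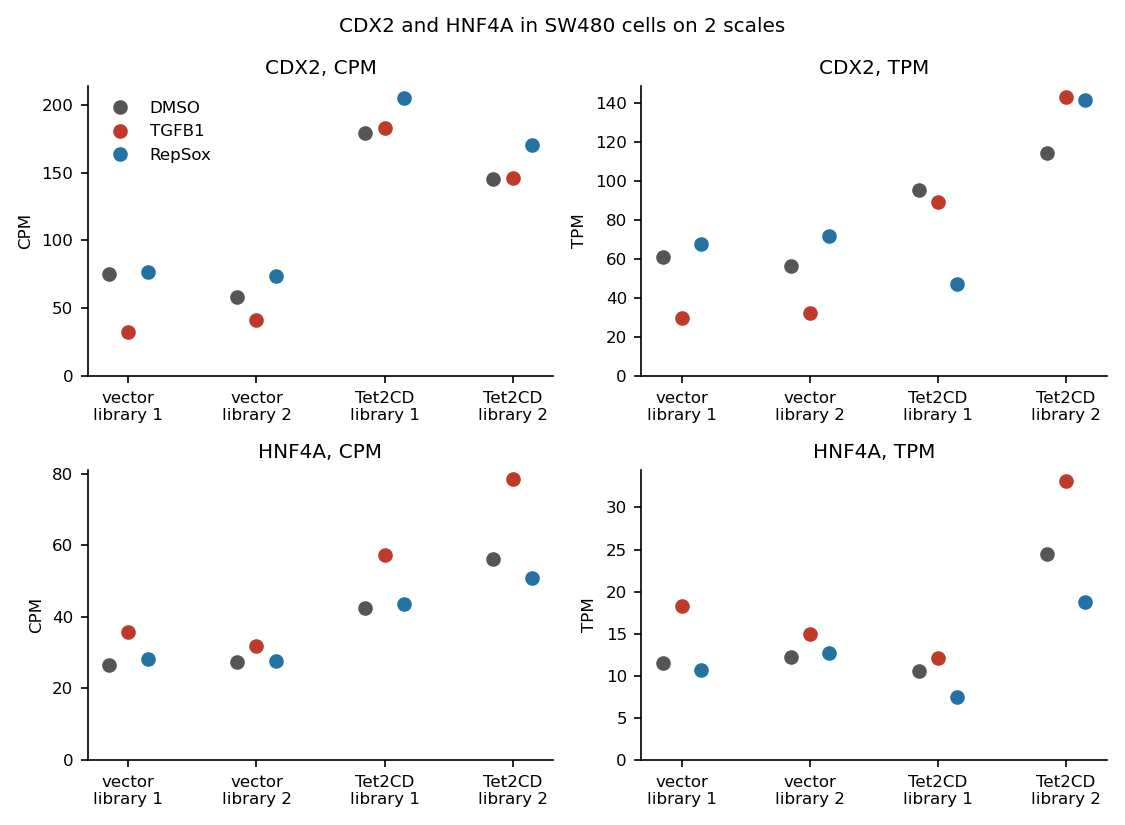
CDX2 and HNF4A in SW480 (1 row of panels each), in CPM on the left and TPM on the right, with library 1 and library 2 of vector and Tet2CD cells on the horizontal axis and 1 coloured point per treatment. HNF4A with Tet2CD lies above vector in every library by CPM, whereas by TPM the Tet2CD libraries numbered 1 (7.48 to 12.1) fall among or below the vector libraries.

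In SW620 no member was called for Tet2CD, where 0.274% of all genes were higher and 0.0392% lower. By an unadjusted p under 0.05 and by DESeq2, 0 members passed too. FOXA1, at 0 in SW620, had nothing to test there. The 95% intervals of the log2 fold change were -0.39 to 0.38 for CDX2, -0.41 to 0.02 for HNF4A, -0.44 to 0.39 for HNF4G, -0.24 to 0.20 for FOXA2 and -0.36 to 1.06 for GATA6. The CDX2 and HNF4A intervals therefore lie below the rises measured in SW480. The difference in the Tet2CD effect, SW480 minus SW620, was 1.59 for CDX2 (SE 0.24, adjusted p = 0.000483) and 1.08 for HNF4A (SE 0.14, adjusted p = 0.000147), 2 of 6 members, where the difference was above 0 for 10.2% of all genes and below 0 for 9.93%. Without the 3 libraries that stood apart it was 1.41 for CDX2 (adjusted p = 0.000177) and 1.21 for HNF4A (adjusted p = 3.24e-07). On TPM neither difference was called (0.62, adjusted p = 0.263, and 0.47, adjusted p = 0.329), nor from the DMSO groups alone (1.68, adjusted p = 0.0939, and 1.02, adjusted p = 0.0992).

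**Figure D3:**
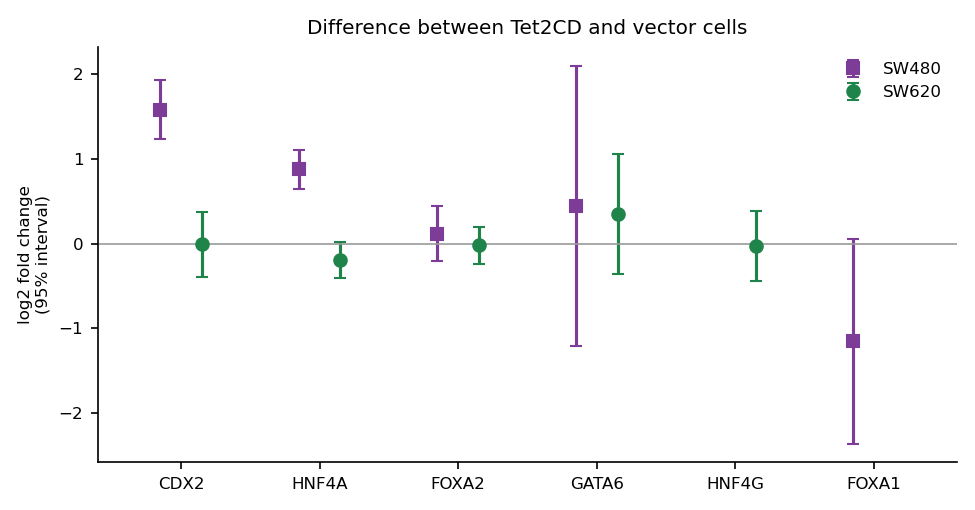
Log2 fold change of Tet2CD against vector (vertical axis) for the tested members (horizontal axis) in SW480 (squares) and SW620 (circles), with bars for the 95% interval on 12 residual degrees of freedom. CDX2 and HNF4A lie above 0 in SW480 and around 0 in SW620, and HNF4G in SW480 and FOXA1 in SW620, at or near 0 counts, are not drawn.

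TGFB1, the ligand of the receptor that RepSox blocks, was compared with DMSO in each line. In SW480, 0 of the 6 members were called, where 0.732% of all genes were higher and 0.314% lower, 3 passed an unadjusted p under 0.05 and DESeq2 called 0. The log2 fold changes were 0.40 for HNF4A (95% interval 0.12 to 0.67, adjusted p = 0.155), 0.56 for FOXA2 (0.18 to 0.93, adjusted p = 0.164) and -0.42 for CDX2 (-0.84 to 0.00, adjusted p = 0.372). HNF4A was called without the 3 libraries that stood apart (0.41, adjusted p = 0.0296). In SW620, HNF4A rose by 0.39 (SE 0.12, adjusted p = 0.0355) and FOXA2 by 0.46 (SE 0.13, adjusted p = 0.0197), 2 of 6 members, where 8.31% of all genes were higher and 7.27% lower. HNF4A was called in 10 of 32 alternative fits (adjusted p up to 0.458) and FOXA2 in 24 of 32 (adjusted p up to 0.206). HNF4G and GATA6 differed in SW620 by -0.11 and 0.44 (adjusted p = 0.811 and 0.5). CDX2 differed there by -0.49 (95% interval -0.96 to -0.03, adjusted p = 0.134). Without the 3 libraries that stood apart it differed by -0.51 and was called lower. The difference in the TGFB1 effect between lines had 0 members called, where 0.902% of all genes were higher and 1.17% lower, 0 passed an unadjusted p under 0.05 and DESeq2 called 0. It was 0.08 for CDX2 (95% interval -0.55 to 0.70), 0.01 for HNF4A (-0.36 to 0.38) and 0.10 for FOXA2 (-0.36 to 0.56).

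CDX2 with TGFB1 had different values in the constructs. In a split chosen after the values were seen, its log2 fold change against DMSO was -0.85 in SW480 with vector (SE 0.28, unadjusted p = 0.00723, adjusted p = 0.230) and 0.02 in SW480 with Tet2CD (SE 0.27). In SW620 it was -1.15 with vector (SE 0.31, adjusted p = 0.0404) and 0.16 with Tet2CD (SE 0.30, adjusted p = 0.862). CDX2 thus fell with TGFB1 in SW620 vector cells, and its Tet2CD libraries were at 30.4 and 12.9 CPM, of which the higher decides the Tet2CD value. Without it the log2 fold change over both constructs was -0.87 (adjusted p = 0.00708) in place of -0.49 (adjusted p = 0.134). The difference between the constructs was 0.87 in SW480 (SE 0.39, unadjusted p = 0.0370, adjusted p = 1) and 1.30 in SW620 (SE 0.43, unadjusted p = 0.00763, adjusted p = 1) and was not called in either line. For SW620, 0% of all genes were called in each direction, with 201 genes at an unadjusted p under 0.05, 1 called by DESeq2 and 0 by limma on TPM.

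RepSox was compared with the same DMSO libraries, so its contrasts share their controls with those of TGFB1. In SW480, 0 of the 6 members and 0% of all genes in each direction were called, 0 members and 433 genes passed an unadjusted p under 0.05, and DESeq2 called 1 gene and 0 members. The 95% intervals there were -0.22 to 0.61 for CDX2, -0.28 to 0.28 for HNF4A and -0.35 to 0.46 for FOXA2. In SW620, CDX2 fell by 1.21 on the log2 scale (SE 0.23, adjusted p = 0.00428) and HNF4A fell by 0.74 (SE 0.12, adjusted p = 0.00168), 2 of 6 members lower, where 2.01% of all genes were higher and 2.68% lower. Both calls held in 31 of 32 alternative fits and were lost with limma on TPM (adjusted p = 0.0881 and 0.326). HNF4G differed by -0.53 (95% interval -1.04 to -0.02, adjusted p = 0.280), FOXA2 by 0.08 (-0.19 to 0.36) and GATA6 by -0.25 (-1.15 to 0.65). HNF4A fell by 0.62 with vector (SE 0.17, adjusted p = 0.121) and by 0.86 with Tet2CD (SE 0.17, adjusted p = 0.0213) and CDX2 had log2 fold changes of -1.15 (adjusted p = 0.116) and -1.27 (adjusted p = 0.0758), in a split made after the values were seen.

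The RepSox effect, SW480 minus SW620, was 1.41 for CDX2 (SE 0.30, adjusted p = 0.0290), the 1 member called, where 0.699% of all genes were higher and 0.327% lower, and 0.74 for HNF4A (SE 0.18, adjusted p = 0.0565). The CDX2 call held in 17 of 31 alternative fits (adjusted p up to 0.541), and without the 3 libraries that stood apart the difference was 1.43 (adjusted p = 0.0046). The RepSox effect in SW480 did not pass the test for a difference between Tet2CD and vector in any member or gene (0% in each direction, 0 members and 294 genes at an unadjusted p under 0.05, 0 genes by DESeq2), with 95% intervals of -0.80 to 0.86 for CDX2 and -0.67 to 0.44 for HNF4A.

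**Figure D4:**
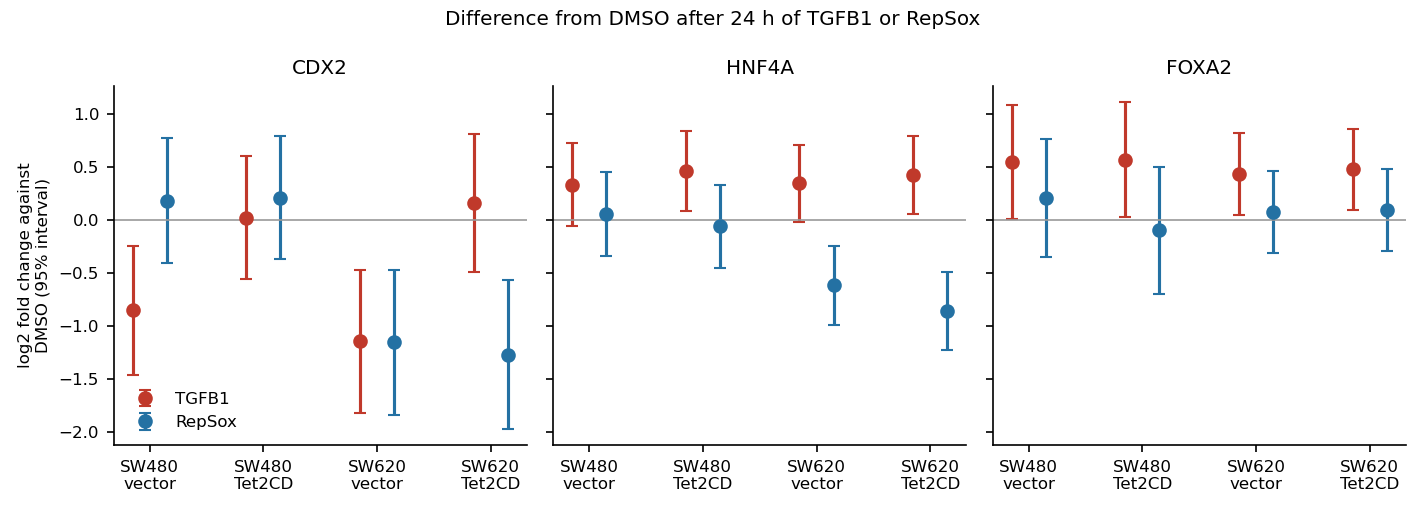
Log2 fold change of TGFB1 and of RepSox against DMSO (vertical axis) for CDX2, HNF4A and FOXA2 (panels), by line and construct on the horizontal axis, with bars for the 95% interval on 12 residual degrees of freedom. CDX2 and HNF4A with RepSox lie below 0 in SW620 and near 0 in SW480, and CDX2 with TGFB1 lies below 0 in vector cells and near 0 in Tet2CD cells of both lines.

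Set directly against each other, the ligand and the inhibitor differed most, among the members, at HNF4A in SW620. TGFB1 against RepSox gave HNF4A 1.12 (SE 0.12, adjusted p = 5.06e-06), which is 2.18-fold, CDX2 0.72 (SE 0.23, adjusted p = 0.0260) and FOXA2 0.37 (SE 0.13, adjusted p = 0.0339), all higher with TGFB1 and 3 of 6 members, where 14.5% of all genes were higher and 14.5% lower. The HNF4A call held in 32 of 32 alternative fits and that of FOXA2 in 12. For CDX2 the vector cells did not differ, with means of 11.68 ± 1.29 CPM with TGFB1 and 11.52 ± 2.25 CPM with RepSox. The averaged CDX2 difference came from the Tet2CD cells, at 21.65 ± 12.4 and 8.11 ± 1.19 CPM. The CDX2 difference was 0.36 (adjusted p = 0.209) without replicate 1 of SW620 Tet2CD with TGFB1, and it was also not called without replicate 2 of Tet2CD with RepSox, of vector with TGFB1 or of vector with RepSox, or on TPM (0.07, adjusted p = 0.928). HNF4G and GATA6 differed by 0.42 and 0.69 (adjusted p = 0.210 and 0.213). In SW480, 0 members were called by edgeR and by DESeq2, 3 passed an unadjusted p under 0.05, and 1.22% of all genes were higher and 0.83% lower. There the values were -0.61 for CDX2 (adjusted p = 0.121), 0.40 for HNF4A (adjusted p = 0.125) and 0.50 for FOXA2 (adjusted p = 0.208), and 2 members were called without the 3 libraries that stood apart.

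Genes of differentiated intestinal epithelium and other regulators of it were read from lists. Of 32 enterocyte genes, 14 were tested. With Tet2CD in SW480, 7 of the 14 rose and 0 fell (median log2 fold change 1.28 against 0.03 over all genes, of which 29.2% were higher and 25.3% lower). With 3 genes at the floor left out and 1 gene at its bound, the median over the remaining 11 genes was 1.29. VIL1, which bundles actin in microvilli, went from 43.5 to 63.7 CPM with vector to 75.3 to 127 CPM with Tet2CD (log2 fold change 0.88, SE 0.09, adjusted p = 3.11e-06), and CDHR5, a microvillar cadherin, went from 0 to 0.271 CPM to 1.24 to 11.6 CPM (1 against 99 counts, adjusted p = 8.42e-06). Without the 3 libraries that stood apart 7 of 15 rose and 0 fell. In SW620, 0 of the 14 were called for Tet2CD. FABP1, a fatty acid binding protein of enterocytes, stayed at 0 in all 12 SW480 libraries. Between the lines in vector cells, 11 of the 14 were lower in SW480 and 1 was higher (median log2 difference -2.88, where 30% of all genes were lower and 28.9% higher), VIL1 and CDHR2 by differences of -2.70 and -6.89 (adjusted p = 5.87e-13 and 2.28e-11). FABP1, for one, passed the filter on low counts only through SW620, so nothing is read from this count against these shares.

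In SW620 enterocyte genes moved with treatment. With TGFB1, 4 of the 14 rose and 0 fell (median 0.68, where 8.31% of all genes were higher), and the smallest p values were those of FABP1 (7 counts with DMSO against 54 with TGFB1, adjusted p = 0.00427) and A1CF, which helps to edit apolipoprotein B mRNA (1.16, adjusted p = 0.0119). FABP1, at 0 in SW480, passed the filter on low counts only through libraries where it was higher than with DMSO. Its p-value is therefore no support for a rise. With RepSox, 5 fell and 0 rose (median -0.65, where 2.68% of all genes were lower). CDHR2, a microvillar cadherin, fell by 1.62 on the log2 scale (adjusted p = 0.000504), and CDH17, an intestinal cadherin, had 16.7 counts over the 4 DMSO libraries and 0 in all 4 RepSox libraries (adjusted p = 0.0113). TGFB1 against RepSox gave 8 higher and 0 lower, with a median of 1.44 and 14.5% of all genes called in each direction, CDHR2 by 2.29 (adjusted p = 2.75e-06). CDH17, at 0 with RepSox, also passed the filter only through libraries where it was higher, so its p-value is no support for a difference. Nothing is read from these counts of genes against the shares.

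**Figure D5:**
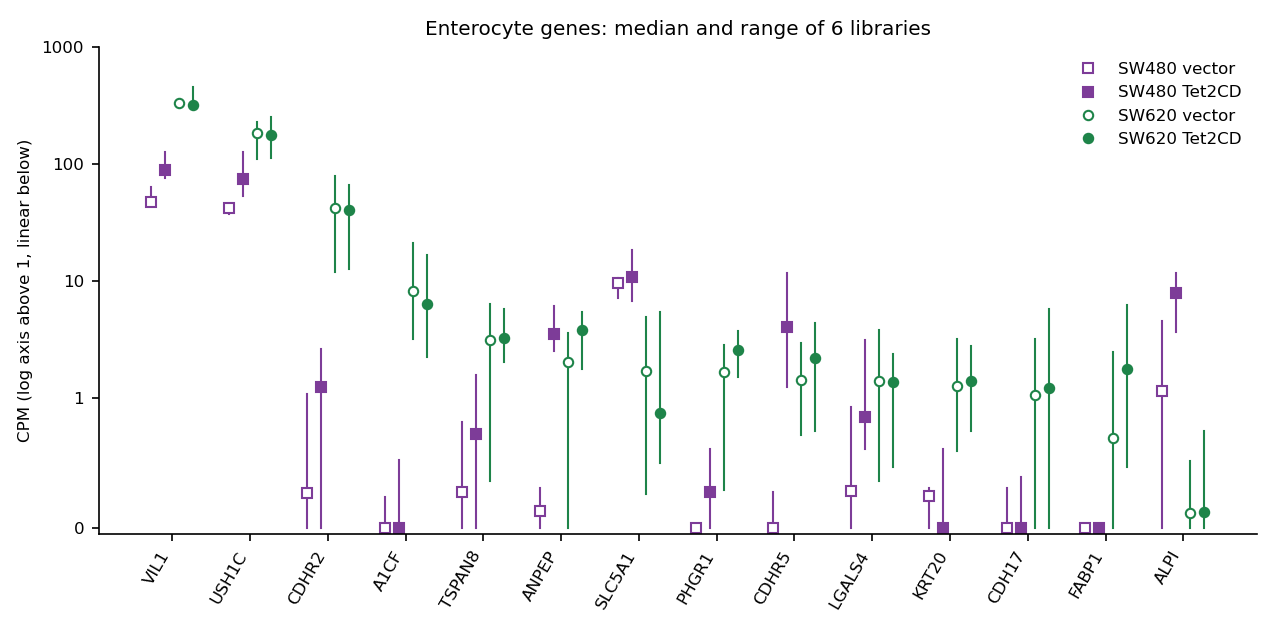
Level in CPM (log axis above 1, linear below) of the 14 tested enterocyte genes, as the median with the range of 6 libraries, for vector and Tet2CD cells of each line. VIL1 and CDHR5 are higher with Tet2CD in SW480, and in vector cells 11 of the 14 genes are higher in SW620 by the test. Nothing is read from that count, since FABP1, for one, passed the filter on low counts only through SW620.

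Of 20 other intestinal and endodermal transcription factors, 12 were tested. With Tet2CD in SW480, 3 rose and 4 fell (median 0.16), where 29.2% of all genes were higher and 25.3% lower, so the list's shares were near those of all genes. KLF4, a factor of differentiated colonic epithelium, rose by 1.58 (adjusted p = 1.56e-05) and FOXA3, the remaining FOXA factor, by 1.18 (adjusted p = 0.00233), whereas VDR, the vitamin D receptor, fell by 0.96 (adjusted p = 0.000146) and KLF5, which maintains proliferating crypt cells, fell by 1.08 (adjusted p = 0.000662). In SW620 with Tet2CD 0 were called. With TGFB1 in SW620, where 8.31% of all genes were higher, 3 rose and 0 fell, ELF3, an epithelial ETS factor, by 1.68 (adjusted p = 3.87e-07) and KLF5 by 1.27 (adjusted p = 0.00221). With RepSox in SW620, where 2.68% of all genes were lower, 1 fell, FOXA3 (log2 fold change -0.84, adjusted p = 0.0122). TGFB1 against RepSox in SW620 gave 7 higher and 0 lower (median 0.80, where 14.5% of all genes were called in each direction). Without the 3 SW480 libraries that stood apart, which add to the estimate of the spread, these SW620 counts were 6 higher with TGFB1, 2 higher and 4 lower with RepSox, and 10 higher and 1 lower for TGFB1 against RepSox. In vector cells 4 were higher and 7 lower in SW480, where 28.9% and 30% of all genes were, and FOXA3 was lower by a difference of -4.77 (adjusted p = 6.1e-12), on the same side as FOXA2.

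Of 12 secretory cell genes, 6 were tested. With Tet2CD in SW480, 3 rose and 0 fell, TFF3, a goblet cell peptide, from 3 to 28 counts (adjusted p = 0.000431) and FCGBP, a mucus protein, by 2.11 (adjusted p = 0.000663), where 29.2% of all genes were higher. Without the 3 libraries that stood apart 3 of 7 rose and 1 fell. In SW620 with RepSox, where 2.01% of all genes were higher and 2.68% lower, 2 rose, MUC2 and DEFA5 (adjusted p = 0.00148 and 0.0140), and 2 fell, CHGB and FCGBP (adjusted p = 0.0144 and 0.0391). All 10 TGF-beta response genes on the list were tested. With Tet2CD in SW480 5 rose and 3 fell, where 29.2% of all genes were higher and 25.3% lower, and without the 3 libraries that stood apart 4 rose and 2 fell. TGFBI, an extracellular matrix protein, rose by 1.35 (adjusted p = 4.65e-08), and in SW620 0 were called. With TGFB1 3 rose and 1 fell in SW480, where 0.732% and 0.314% of all genes did, PMEPA1, a feedback inhibitor of the pathway, by 1.07 (adjusted p = 0.000187). In SW620 4 rose and 0 fell, where 8.31% and 7.27% of all genes did, PMEPA1 by 0.47 (adjusted p = 0.00581). With RepSox 0 of the 10 were called in SW480, while in SW620 2 rose, PMEPA1 by 1.07 (adjusted p = 2.73e-05) among them, and 2 fell. Those that fell were CCN2 and the gene TGFB1 (log2 fold changes -1.62 and -0.81, adjusted p = 0.0417 and 0.0167). In the line where CDX2 and HNF4A were lower with the inhibitor, PMEPA1, a gene that TGF-beta raises, was thus higher, while CCN2 and the gene TGFB1 were lower.

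Likeness of pattern was read over the 12 group means, which split by line. Over 13984 to 13985 genes with a mean log2 CPM of at least 1, the Pearson r with CDX2 was highest for SPINT1-AS1 (0.990), MYPOP (0.988) and COMMD7 (0.987), and 975 genes had r above 0.9. For HNF4A they were SHF (0.993), USH1C (0.991) and WHRN (0.980), with 370 genes above 0.9, and for FOXA2 they were RASGRF2 (0.998), SGCE (0.997) and WIPF1 (0.996), with 1180. For HNF4G they were F5 (0.997), KRTAP3-2 (0.997) and LINC02404 (0.996), with 1173. For GATA6 they were SMIM6 (0.991), AARS (0.989) and KANK1 (0.988), with 959, and for FOXA1 PTPRZ1 (0.985), ZNF462 (0.979) and LRP2 (0.978), with 443. Among members r was 0.99 for HNF4G with FOXA2, 0.91 for HNF4A with HNF4G, 0.91 for HNF4A with FOXA2, -0.62 for CDX2 with HNF4A and 0.68 for CDX2 with FOXA1. These points share the 2 lines, so genes that differ between lines correlate over them, and r is a description with no test.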

How the data were processed

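Libraries of total RNA were made with TRIzol and a TruSeq kit, per the labels. Reads were trimmed with Trimmomatic and quantified against Ensembl transcripts by RSEM, which called bowtie2, per the study's methods. These also name a GC-content normalization, whose step was not found in the tables. The submitters' notes name Bowtie, RSEM and the mouse build mm10, whereas the identifiers are human. The authors deposited an expected count, RSEM's estimate of fragments per gene, and TPM, which divides by transcript length and scales to the same sum in each library. The sources used here do not say whether counting used strand. HNF4A-AS1, GATA6-AS1 and TTC6, which overlap members on the other strand, had at most 2 counts in any library. The study's text and the labels differ on ligand and duration, and the labels were followed.

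Rounded expected counts were fitted with edgeR 4.0.16 (R 4.3.3) by the quasi-likelihood test, with TMM, filterByExpr (minimum count 10, total 15) and a mean for each of 12 groups over all 24 libraries, leaving 15302 genes and 12 residual degrees of freedom (common biological variation 21.3%). Effects over treatments or constructs are averages of group contrasts. Alternatives were DESeq2 1.42.0, limma 3.58.1 on log2(TPM + 1), relative log expression scaling, no filter, a GC offset, a block, subsets of libraries and leaving out each library. GENCODE 29 matched 32777 of 33382 identifiers (98.2%). Members and gene lists were chosen with earlier results of these data known. All 7 members are named. Of each list the genes with the smallest p are named, up to 2 in each direction (1 such gene is not reported here), and FABP1 in SW480 was named after its values were seen. Library totals set the precision, since 3 counts are 0.675 to 1.82 CPM, and intervals on counts cover counting error alone. The authors' FPKM was not used.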

Additional observations from a re-analysis of the deposited data

Results flagged for a closer look

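3 values differed between the lines by a test of the difference itself. The Tet2CD effect on CDX2 was larger in SW480 than in SW620 by 1.589 on the log2 scale (edgeR, adjusted p = 0.000483), and all 6 SW480 Tet2CD libraries were above all 6 vector libraries. The Tet2CD effect on HNF4A was larger in SW480 by 1.075 (adjusted p = 0.000147), higher in 6 of 6 SW480 Tet2CD libraries by CPM and not by TPM. The RepSox effect on CDX2 differed by 1.407 (adjusted p = 0.029), with all 4 SW620 RepSox libraries below all 4 DMSO libraries.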

How the results depend on the processing

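Each comparison was recomputed under the alternatives, and no member call reversed. With limma on log2(TPM + 1) 0 members were called for the line difference in the Tet2CD effect (2 in the reported fit), for TGFB1 in SW620 (2), for RepSox in SW620 (2) and for the line difference in the RepSox effect (1). From the DMSO groups alone the line difference in the Tet2CD effect had 0 members. TGFB1 in SW620 gave 0 members with no filter, 1 with a GC offset and 0 to 2 when 1 library was left out. The line difference in the RepSox effect gave 2 with relative log expression, with DESeq2 and without the 3 SW480 Tet2CD replicate 1 libraries, and 0 to 2 when 1 library was left out. Without those 3 libraries TGFB1 in SW480 gave 1 member and TGFB1 against RepSox in SW480 gave 2 (0 in the reported fit), and leaving out 1 library gave 0 to 2 there and 1 to 3 for TGFB1 against RepSox in SW620. CDX2 was also called lower for TGFB1 in SW620 without those 3 libraries. The cause of these moves was not tested. CDX1 was called with Tet2CD in SW480 only with no filter (adjusted p = 0.049). Over all genes, DESeq2 called 406 for TGFB1 in SW480 (edgeR 160), 585 for the line difference in the TGFB1 effect (317), 314 for that in the RepSox effect (157), 566 for TGFB1 against RepSox in SW480 (313) and 91 for Tet2CD in SW620 (48). Library numbers run across groups, and deviations of same-numbered libraries correlated from -0.236 to 0.714 (median 0.031), so they were not taken as pairs. With the number as a replicate block, 2 members were called for Tet2CD in SW480 and 6 for the lines in vector cells, and the block changed no member count. Depth limits CDX1, GATA6 and FOXA1, which had 10, 157 and 68 counts in all.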
